A study of Mus musculus with 6 samples.

Results

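The prostanoid and leukotriene pathway was followed through 10 genes in bone marrow-derived macrophages (BMDMs, macrophages grown in culture from bone marrow cells). The 10 genes were taken by their symbols from a table of 55335 mouse gene identifiers, and all 10 were found and passed the filter on low values that 13367 genes passed. They are *Ptgs1* and *Ptgs2* (cyclooxygenases), *Ptges*, *Hpgds* and *Tbxas1* (terminal prostanoid synthases), *Ptger2* and *Ptger4* (prostaglandin E2 receptors), and *Alox5*, *Alox5ap* and *Lta4h* (leukotriene synthesis). The BMDMs carried a WT genotype and were grown with macrophage colony-stimulating factor (25 ng/ml, 7 days), then kept for 24 h with neutrophils that had been isolated by magnetic sorting from spinal cord lesions at 3 dpi (days post injury). In 3 libraries the neutrophils are labelled *Cd177* WT and in 3 they are labelled *Cd177* KO, so by the labels the deletion was in the neutrophils added and not in the macrophages sequenced. The mice were adult C57BL/6 males, and Ly6G-negative cells were sorted from the co-culture before RNA was extracted. No library of BMDMs without neutrophils was analysed here, and the labels do not say that the libraries of a group came from separate cultures or animals, so p-values measure the spread between these libraries, which may be technical.

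Prostanoids and leukotrienes are lipid mediators made from arachidonate, which phospholipases release from membranes. Cyclooxygenases turn arachidonate into prostaglandin H2, and terminal synthases then make prostaglandin E2, prostaglandin D2 or thromboxane A2 from it. Cyclooxygenase-1 (*Ptgs1*) is the constitutive form in most cells, while cyclooxygenase-2 (*Ptgs2*) and microsomal prostaglandin E synthase-1 (*Ptges*) are induced in macrophages by inflammatory stimuli such as bacterial lipopolysaccharide. In the other branch, 5-lipoxygenase (*Alox5*) works with its activating protein (*Alox5ap*) to make leukotriene A4, which leukotriene A4 hydrolase (*Lta4h*) converts to the neutrophil attractant leukotriene B4.

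The KO-labelled libraries had lower levels of the inducible enzymes *Ptgs2* and *Ptges* and higher levels of *Ptgs1*, *Hpgds* and *Alox5*. Values are FPKM (fragments per kilobase, with each library scaled by its own number of fragments), and fold changes are differences of log2(FPKM + 0.5) between the KO-labelled libraries and the WT-labelled ones, which understate the change of low genes. With an adjusted p-value under 0.05 taken as called, 3 of the 10 genes were lower (*Ptgs2*, *Ptges* and *Ptger2*), against 10.5% of all tested genes. Another 6 were higher (*Ptgs1*, *Hpgds*, *Tbxas1*, *Ptger4*, *Alox5* and *Lta4h*), against 27.1% of all tested genes, and *Alox5ap* was not called. The groups did not overlap for 9 of the 10, which also held for 51.9% of all tested genes. The median log2 fold change of the 10 genes was 0.46, beside 0.19 over all tested genes. By the threshold that the study used (fold change above 2, unadjusted p-value under 0.05), 3 genes passed as lower (4.43% of all tested genes) and 2 as higher, *Hpgds* and *Alox5* (6.68% of all tested genes).

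The scaling between libraries bears on these directions. Of all called genes, 72.0% were higher in the KO-labelled libraries, but 49.1% were after scaling the libraries by the median of ratios and 49.5% after upper-quartile scaling, and both moved the median of all genes from 0.19 to near 0. Relative to that shift of 0.19, *Lta4h* lay at the level of the typical gene and lost its call under both scalings. The other 8 called genes kept direction and call, with *Tbxas1* nearest to the shift at a log2 fold change of 0.34.

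**Figure D1:**
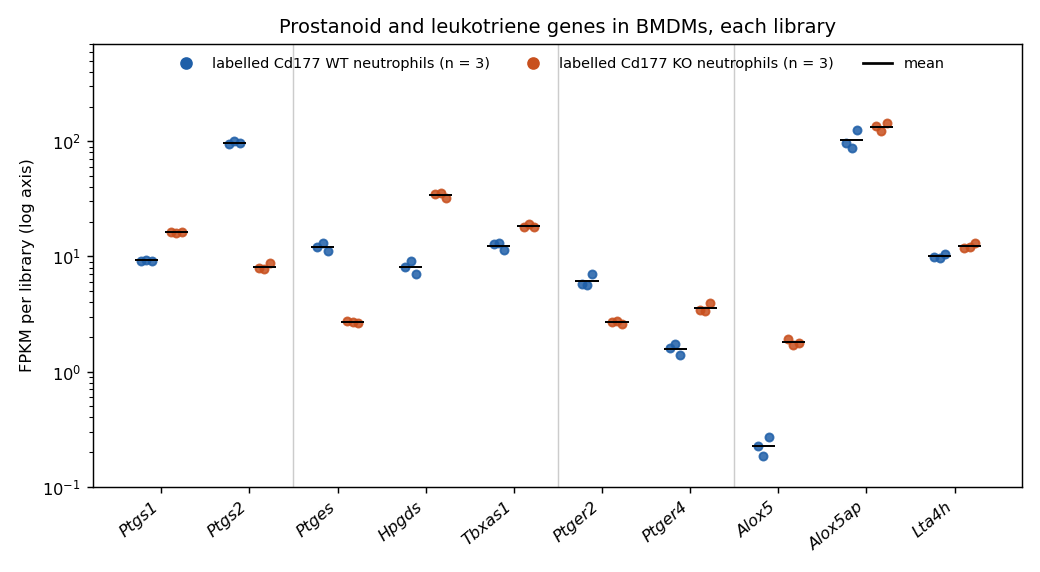
FPKM of the 10 genes in each library on a log axis, ordered by role from cyclooxygenases to leukotriene enzymes, with points for single libraries and a bar for the mean of 3. *Ptgs2* stood near 97 FPKM in the WT-labelled libraries and near 8 in the KO-labelled ones, and *Alox5ap* is the 1 gene whose groups overlapped.

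The sequences before the starts of both cyclooxygenases and of *Ptges* are shown because these genes carry the contrast of inducible and constitutive enzymes. Each is 200 bases, from 175 before to 25 after the start that RefSeq gives (GRCm38.p6), 5′ to 3′ on the strand of the gene. *Ptgs2* lies at chr1:150099856-150100055 on the plus strand, *Ptges* at chr2:30903273-30903472 on the minus strand, and *Ptgs1* at chr2:36230251-36230450 on the plus strand. Capitals mark matches to 7 motifs searched on both strands.
Ptgs2: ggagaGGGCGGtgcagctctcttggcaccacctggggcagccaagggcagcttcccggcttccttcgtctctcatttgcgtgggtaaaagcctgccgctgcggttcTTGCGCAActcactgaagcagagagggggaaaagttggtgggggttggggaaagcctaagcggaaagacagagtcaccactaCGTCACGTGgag
Ptges: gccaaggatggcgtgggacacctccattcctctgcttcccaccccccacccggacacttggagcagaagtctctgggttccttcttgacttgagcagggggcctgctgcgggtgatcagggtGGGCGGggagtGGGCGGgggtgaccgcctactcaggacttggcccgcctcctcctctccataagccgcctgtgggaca
Ptgs1: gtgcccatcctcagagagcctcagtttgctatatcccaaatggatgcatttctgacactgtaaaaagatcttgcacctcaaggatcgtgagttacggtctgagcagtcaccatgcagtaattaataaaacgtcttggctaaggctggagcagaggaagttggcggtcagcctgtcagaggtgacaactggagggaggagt
The C/EBP palindrome TTGCGCAA was found in *Ptgs2* from -69 to -62, and 0.183% of 32851 promoter windows of 300 bases held it. *Ptgs2* also held the core of a cyclic AMP response element (CGTCA, 20.8% of windows) from 14 to 18, which overlaps an E-box (CACGTG, 7.15% of windows) from 17 to 22. The GC box (GGGCGG, 35.7% of windows) was found once in *Ptgs2* and at 2 places in *Ptges*, and also in *Ptger4* and *Alox5*. *Tbxas1* held a TATA box (TATAAA, 13.6% of windows). It also held a match to the AP-1 motif (TGANTCA, 7.81% of windows). The RefSeq starts of *Tbxas1* (shown window chr6:38918811-38919010) and *Ptges* lie far inside the gene spans given below, not at their outer ends. The kappaB motif searched (GGANTTTCC, 1.25% of windows) was found in none of the 9 promoters. Each was searched only from 250 bases before to 50 after the RefSeq start. The windows of *Ptgs1*, *Hpgds*, *Ptger2* and *Lta4h* held none of the 7 motifs, and *Alox5ap* had no entry in the promoter table. A match is a run of letters and was not tested for binding.

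*Ptgs2* showed the largest change of the 10 genes. It was listed at 95.1, 100.4 and 95.9 FPKM in the WT-labelled libraries and at 7.95, 7.84 and 8.72 FPKM in the KO-labelled ones. All 3 WT values lay far above all 3 KO values, and the libraries of each group lay close together. The means were 97.1 ± 2.85 and 8.17 ± 0.480 FPKM (SD, n = 3 each), so that the WT mean was 11.9 times the KO mean. The log2 fold change was -3.49 (SE 0.08, 95% interval -3.68 to -3.30, adjusted p = 1.51e-06), and 99.5% of tested genes had a smaller change in either direction. Among all tested genes, its level stood at percentile 96.7 in the WT-labelled libraries and at percentile 61.8 in the KO-labelled ones. The gene spans chr1:150100031-150108227 (GRCm38, plus strand).

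*Ptgs1*, the constitutive cyclooxygenase, changed the other way. Its FPKM was 9.12, 9.36 and 9.20 in the WT-labelled libraries and 16.4, 16.0 and 16.2 in the KO-labelled ones. The groups did not overlap, and the SD within each was 0.122 and 0.218 FPKM (n = 3 each). The log2 fold change was 0.78 (SE 0.07, 95% interval 0.61 to 0.96, adjusted p = 0.000356), or 1.76 times in FPKM. The gene lies at chr2:36230426-36252272 on the plus strand, and it shares 148 exon bases with *Gm43621*, which stood under 0.35 FPKM in every library.

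The balance between the cyclooxygenases was inverted between the groups. *Ptgs2* made up 91.3% of the summed FPKM of *Ptgs1* and *Ptgs2* in the WT-labelled libraries (SD 0.129, n = 3). Its part in the KO-labelled ones was 33.5% (SD 1.32, n = 3). On the log2 scale the *Ptgs2* to *Ptgs1* ratio, which the scaling between libraries leaves in place apart from the added 0.5, was 3.33 ± 0.024 and -0.95 ± 0.08 (SD, n = 3 each), a difference of -4.28. It was lower in all 3 KO-labelled libraries than in any labelled WT, and the exact permutation test (two-sided) gave p = 0.1, the smallest that 3 against 3 allows. Exact p-values were 0.1 for all 4 ratios tested, and remain 0.1 after adjustment, so none could pass the threshold.

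**Figure D2:**
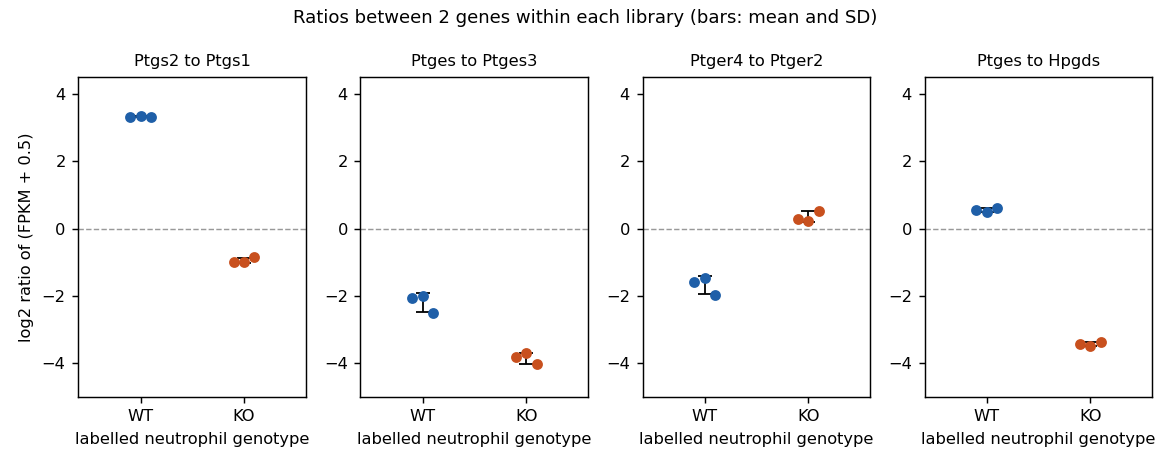
log2 ratios of (FPKM + 0.5) between 2 genes within each library, by the labelled neutrophil genotype, with points for libraries and bars for the mean and SD of 3. *Ptgs2* to *Ptgs1* and *Ptges* to *Hpgds* were above 0 in every WT-labelled library and under 0 in every KO-labelled library, *Ptger4* to *Ptger2* the reverse, and *Ptges* to *Ptges3* was under 0 in all 6.

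Of the terminal synthases, *Ptges* fell, and *Hpgds* and *Tbxas1* rose. *Ptges*, which makes prostaglandin E2, was listed at 12.0, 13.0 and 11.0 FPKM in the WT-labelled libraries and at 2.74, 2.71 and 2.65 FPKM in the KO-labelled ones. Every WT value was above every KO value, and the KO values varied less than the WT values. The log2 fold change was -1.96 (SE 0.09, 95% interval -2.19 to -1.74, adjusted p = 1.78e-05), and the WT mean was 4.45 times the KO mean. The gene is annotated at chr2:30889471-30929863 on the minus strand.

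*Hpgds*, the hematopoietic prostaglandin D synthase, stood at 8.04, 9.15 and 7.10 FPKM in the WT-labelled libraries and at 34.5, 35.6 and 32.0 FPKM in the KO-labelled ones. All KO values were above all WT values, and the gene moved from percentile 64.1 to percentile 90.2 of tested genes by level. Its log2 fold change was 2.01 (SE 0.11, 95% interval 1.75 to 2.27, adjusted p = 3.15e-05), the largest rise among the 10 on the log2(FPKM + 0.5) scale. With 0.1 added in place of 0.5 it was 2.07, below the 2.55 of *Alox5*, and after rescaling to TPM 2.07, below 2.38. It lies at chr6:65117293-65144908 on the minus strand, inside which the pseudogene *Gm17147* lies on the opposite strand with no exon bases in common. *Gm17147* was itself listed at 0.0394 to 2.89 FPKM in the WT-labelled libraries and 3.48 to 6.49 FPKM in the KO-labelled ones, and whether the counting used strand is not given in the sources used here.

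Mast cells and basophils also express *Hpgds*, so their markers were read beside it. The summed FPKM of 10 such markers was 16.8 to 28.6 in the WT-labelled libraries and 6.97 to 8.04 in the KO-labelled ones. That sum was set by *Mcpt8*, a basophil protease, and *Hdc*, the histamine-forming enzyme, which were the 2 tested markers. Both were lower, where 10.5% of all tested genes were. *Cma1*, *Tpsb2*, *Ms4a2* and *Fcer1a* were listed at 0 in all 6 libraries. *Kit*, *Gata2*, *Cpa3* and *Mcpt4* lay under the filter on low values, and their groups overlapped. Mean *Kit* was 0.0339 FPKM WT-labelled and 0.102 FPKM KO-labelled, and mean *Gata2* 0.307 and 0.206 FPKM. *Cpa3* and *Mcpt4* were at 0 in the WT-labelled libraries and reached at most 0.0745 and 0.0980 FPKM in a KO-labelled one. The part of such cells in *Hpgds* was not tested.

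*Tbxas1*, thromboxane A synthase, was at 12.9, 13.0 and 11.4 FPKM in the WT-labelled libraries and at 17.8, 19.3 and 18.0 FPKM in the KO-labelled ones. The groups did not overlap. Its log2 fold change of 0.55 (SE 0.09, 95% interval 0.34 to 0.76, adjusted p = 0.00347) was smaller than that of the other synthases. The gene lies at chr6:38875404-39084585 on the plus strand. Platelets, which also make thromboxane, were read by 6 markers, of which 2 were tested and 1, *Ppbp*, was lower (10.5% of all tested genes were). *Itga2b*, *Gp1bb*, *Gp9* and *Gp6* lay under the filter on low values. Of these, *Itga2b* (mean 0.356 FPKM WT-labelled, 0.502 KO-labelled) and *Gp9* (0.0617 and 0.410 FPKM) were higher in the KO-labelled libraries without overlap. The groups overlapped for *Gp1bb* and *Gp6*. *Pf4*, which set the summed level of the platelet markers, did not pass the test, and that sum was 846 to 1349 FPKM in the WT-labelled libraries and 790 to 853 FPKM in the KO-labelled ones.

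The inducible prostaglandin E synthase was also set against the constitutive forms. *Ptges3*, the cytosolic form, was at 51.2, 53.6 and 65.7 FPKM in the WT-labelled libraries and 45.5, 41.4 and 51.2 FPKM in the KO-labelled ones (log2 fold change -0.30, adjusted p = 0.110). It was not called here, but was called lower after scaling by the median of ratios (-0.51, adjusted p = 0.0281). *Ptges2*, the second microsomal form, averaged 2.54 ± 0.273 and 3.14 ± 0.542 FPKM and was not called (log2 fold change 0.26, adjusted p = 0.193). The log2 ratio of *Ptges* to *Ptges3* was -2.19 ± 0.285 and -3.86 ± 0.166 (SD, n = 3 each), a difference of -1.67. The log2 ratio of *Ptges* to *Hpgds*, the E2 against the D2 synthase, was 0.55 ± 0.059 and -3.43 ± 0.063, a difference of -3.98, so that mean *Ptges* was 1.48 times *Hpgds* in FPKM in the WT-labelled libraries and 0.0793 times in the KO-labelled ones.

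The prostaglandin E2 receptors moved in opposite directions. Both EP2 (*Ptger2*) and EP4 (*Ptger4*) couple to the stimulatory G protein and raise cyclic AMP. *Ptger2* was at 5.77, 5.60 and 7.04 FPKM in the WT-labelled libraries and at 2.72, 2.76 and 2.59 FPKM in the KO-labelled ones, with no overlap. *Ptger4* was at 1.61, 1.72 and 1.40 FPKM in the WT-labelled libraries and at 3.4029, 3.35 and 3.98 FPKM in the KO-labelled ones, also with no overlap. *Ptger2* fell by 1.05 on the log2 scale (SE 0.11, 95% interval -1.32 to -0.78, adjusted p = 0.000587), and *Ptger4* rose by 0.97 (SE 0.12, 95% interval 0.69 to 1.25, adjusted p = 0.000993). *Ptger4* made up 20.6% of the summed FPKM of both receptors in the WT-labelled libraries (SD 3.58, n = 3) and 57.0% in the KO-labelled ones (SD 3.1, n = 3). The log2 ratio of *Ptger4* to *Ptger2* was -1.67 ± 0.277 and 0.35 ± 0.16, a difference of 2.02.

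*Ptger2* lies at chr14:44988195-45003820 on the plus strand and *Ptger4* at chr15:5206661-5244187 on the minus strand. The opposite-strand gene *Ttc33* shares 82 exon bases with *Ptger4* and stood at 7.05 to 9.56 FPKM in the WT-labelled libraries and 10.7 to 11.3 FPKM in the KO-labelled ones, above *Ptger4* in each, so the values of *Ptger4* are less certain than those of the other genes. *Ptger4* also shares 1015 exon bases with the opposite-strand pseudogene *Gm15937*, which was listed at 0 in every library. *Ptger2* shares 246 exon bases with *Gm17173* and 144 with *Gm49364*, which both stood under 0.35 FPKM.

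In the leukotriene branch *Alox5* rose from a very low level. It was listed at 0.224, 0.186 and 0.268 FPKM in the WT-labelled libraries and at 1.91, 1.71 and 1.79 FPKM in the KO-labelled ones. The groups did not overlap, and *Alox5* had the lowest level of the 10 genes in both. The log2 fold change was 1.67 (SE 0.13, 95% interval 1.37 to 1.97, adjusted p = 0.000136). The ratio of the mean FPKM was 7.98, and the log2 fold change ran from 1.19 with 1 added to each value to 2.55 with 0.1 added, so its size rests on the constant added. If the smallest steps of the low values are single fragments, these FPKM correspond to about 12 to 17 fragments in a WT-labelled library and 118 to 124 in a KO-labelled one. The gene lies at chr6:116410077-116461178 on the minus strand.

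*Alox5ap*, which presents arachidonate to 5-lipoxygenase, was the most abundant of the 10 genes by mean in both groups. Its FPKM was 97.1, 88.0 and 125.6 in the WT-labelled libraries and 134.7, 123.9 and 143.0 in the KO-labelled ones. The third WT library lay above the second KO library, so the groups overlapped. The log2 fold change of 0.38 (SE 0.14, 95% interval 0.04 to 0.72, adjusted p = 0.0751) was not called, and without the third WT library it was 0.53 and called (adjusted p = 0.00482). The gene lies at chr5:149264767-149288153 on the plus strand and shares 189 exon bases with *Gm19719*, which stood under 0.35 FPKM.

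*Lta4h* was at 9.88, 9.78 and 10.4 FPKM in the WT-labelled libraries and at 11.9, 12.0 and 13.0 FPKM in the KO-labelled ones. The groups did not overlap, but the distance between them was the smallest among the called genes, at a log2 fold change of 0.28 (SE 0.08, 95% interval 0.09 to 0.48, adjusted p = 0.0342). The call was lost without any 1 of 5 of the 6 libraries, and held without the third WT library alone (adjusted p 0.0211 to 0.101 over the 6). After scaling by the median of ratios the log2 fold change was 0.08 (adjusted p = 0.543). The gene lies at chr10:93453411-93484875 on the plus strand.

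**Figure D3:**
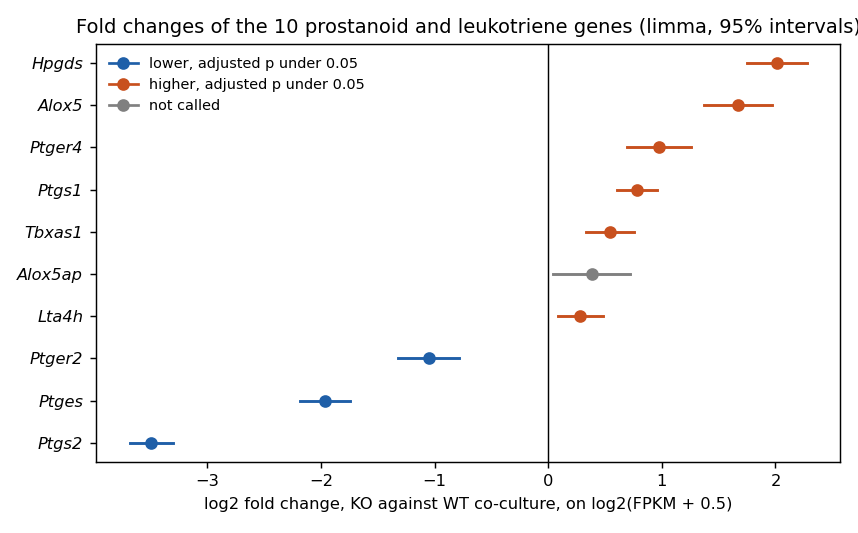
log2 fold change of each of the 10 genes between the KO-labelled libraries and WT on the log2(FPKM + 0.5) scale, with points for the limma estimate and bars for the 95% interval. The estimates ran from -3.49 for *Ptgs2* to 2.01 for *Hpgds*, and the gray interval belongs to *Alox5ap*, which was not called.

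Neutrophil markers were higher where *Alox5*, which neutrophils also express, was higher. Over 13 neutrophil markers the summed FPKM was 189 to 250 in the WT-labelled libraries and 540 to 554 in the KO-labelled ones. Of the 10 tested markers 9 were higher and 1, *Mmp8*, was lower, where 27.1% and 10.5% of all tested genes were. *S100a9* was at 75.9 to 113 FPKM in the WT-labelled and 221 to 244 FPKM in the KO-labelled libraries, and *Ngp*, a granule protein gene, at 10.7 to 15.3 and 105 to 110 FPKM. *Ly6g*, which defines the sort, was listed at 0 in the WT-labelled libraries and at 0.660, 0.547 and 0.403 FPKM in the KO-labelled ones. *Cd177* itself was at 0.544, 0.309 and 0.521 FPKM in the WT-labelled libraries and at 1.79, 1.84 and 2.28 FPKM in the KO-labelled ones (log2 fold change 1.37, SE 0.16, adjusted p = 0.000827). *Cd177* was thus higher in the libraries labelled as co-cultured with KO cells, and every direction given here is that of the labels. The part of neutrophil RNA in *Alox5*, *Alox5ap* and the other genes was not tested, and in these bulk libraries fewer cells of a type and less RNA per cell cannot be told apart.

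Of the other markers, those of macrophages were high in every library. The 8 macrophage markers summed to 6135 to 7352 FPKM in the WT-labelled libraries and 7894 to 8699 FPKM in the KO-labelled ones, with *Adgre1* at 218 to 256 and 279 to 309 FPKM and *Csf1r* at 232 to 284 and 268 to 293 FPKM. Of the 8, 3 were higher and 1, the Fc receptor gene *Fcgr1*, was lower, not far from the 27.1% and 10.5% of all tested genes. Eosinophil markers summed to at most 5.91 FPKM, dendritic cell markers to at most 0.519 FPKM and lymphocyte markers to at most 0.133 FPKM. The fibroblast and endothelial markers summed to 231 to 366 and 296 to 349 FPKM, nearly all of it *Col1a1*, and none of the 3 tested was called. The low values of the 6 libraries imply 17600000 to 20200000 fragments each, if their smallest steps are single fragments.

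The order of the 10 genes by level differed between the groups. In the WT-labelled libraries, *Alox5ap* and *Ptgs2* led and overlapped each other, followed by *Tbxas1* and *Ptges* (overlapping), *Lta4h*, *Ptgs1* and *Hpgds* (overlapping), *Ptger2*, *Ptger4* and *Alox5*. In the KO-labelled ones the order was *Alox5ap*, *Hpgds*, *Tbxas1*, *Ptgs1*, *Lta4h*, *Ptgs2*, *Ptger4*, *Ptges* and *Ptger2* (overlapping) and *Alox5*. *Ptgs2* thus went from second to sixth and *Hpgds* from seventh to second.

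The genes whose pattern over the 6 libraries lay nearest to *Ptgs2*, by Euclidean distance of centred log2 values among 10545 genes, were *Gpr84*, *Mmp13* and *Gbp5*. *Gpr84*, a receptor for medium-chain fatty acids, was at 48.0, 47.0 and 45.9 FPKM in the WT-labelled libraries and at 3.90, 3.85 and 3.86 FPKM in the KO-labelled ones (log2 fold change -3.44). *Mmp13*, a collagenase, averaged 67.5 and 5.76 FPKM, and *Gbp5*, an interferon-induced GTPase, 7.52 and 0.266 FPKM. The Pearson correlations with *Ptgs2* were 0.9995, 0.9991 and 0.9993 over the 6 libraries, which share 1 contrast, and 271 of the 10545 genes had one of at least 0.99.

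The rest of the pathway was read from 47 further genes, of which 29 passed the filter on low values, 7 were lower (10.5% of all tested genes were) and 11 higher (27.1% of all tested genes were). After scaling by the median of ratios 10 were lower and 11 higher, beside 16.7% and 16.1% of all tested genes. The median log2 fold change of the 29 was 0.09, beside 0.19 over all tested genes. *Ptgds*, *Ggt1*, *Oxgr1*, *Alox12b* and *Alox8* were listed at 0 in all 6 libraries, and none of the 5 other lipoxygenases passed the filter.

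**Figure D4:**
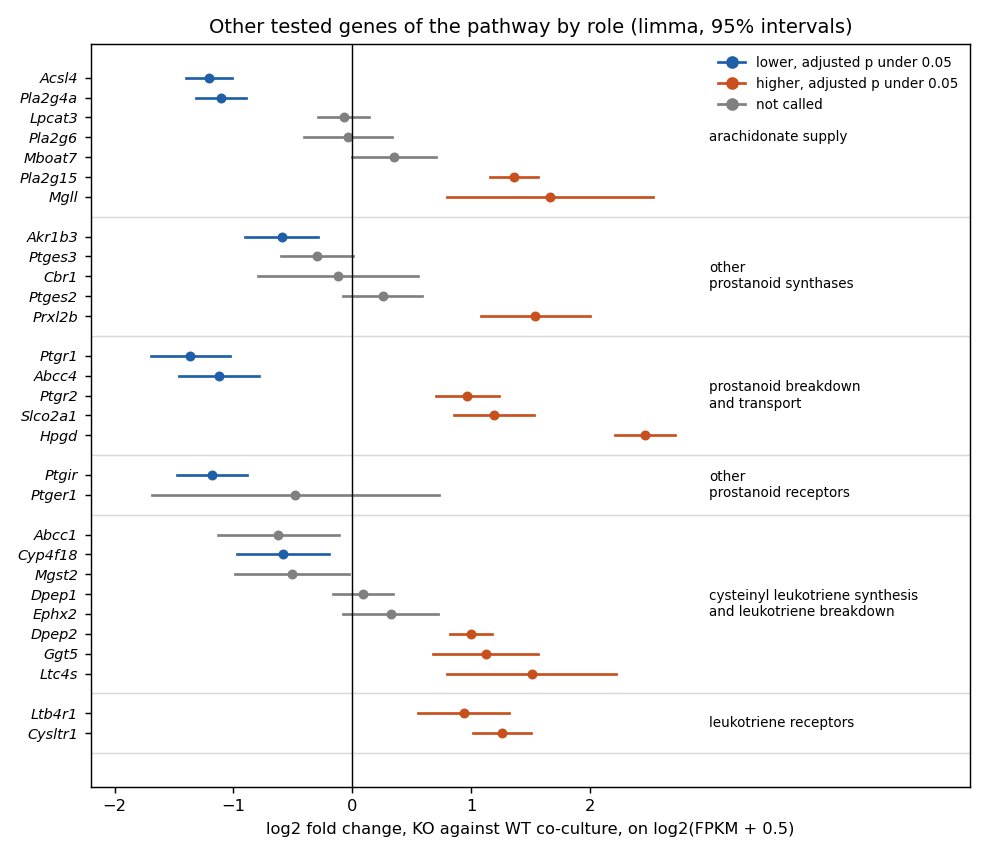
log2 fold change of the 29 other pathway genes that were tested, grouped by role, with points for the limma estimate and bars for the 95% interval on the log2(FPKM + 0.5) scale. On this scale *Hpgd* has the largest rise and *Ptgr1* the largest fall. Of 5 leukotriene receptors 2 were tested and both are higher, as were 27.1% of all tested genes.

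Of 7 tested genes of arachidonate supply, 2 were lower and 2 higher, where 10.5% and 27.1% of all tested genes were. *Pla2g4a*, the cytosolic phospholipase A2 that releases arachidonate, was at 10.3, 9.98 and 10.7 FPKM in the WT-labelled libraries and at 4.19, 4.69 and 4.71 FPKM in the KO-labelled ones. It fell together with *Ptgs2* and *Ptges*, without overlap of the groups, and its log2 fold change was -1.11 (adjusted p = 0.000183). *Acsl4*, which activates arachidonate for return to phospholipids, fell from 36.1 ± 2.09 to 15.4 ± 0.596 FPKM (log2 fold change -1.20, adjusted p = 8.59e-05). *Pla2g15*, the lysosomal phospholipase A2, rose from 34.0 ± 1.82 to 88.0 ± 5.43 FPKM (log2 fold change 1.36, adjusted p = 5.74e-05). *Mgll*, monoacylglycerol lipase, rose from 1.56 ± 0.349 to 6.63 ± 4.03 FPKM (log2 fold change 1.66, adjusted p = 0.0118), and its KO-labelled libraries varied widely around their mean.

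All 5 genes of prostanoid breakdown and transport were called, 2 lower and 3 higher, where 10.5% and 27.1% of all tested genes were. *Hpgd*, the 15-hydroxyprostaglandin dehydrogenase that inactivates prostaglandins, was at 4.72, 4.82 and 5.69 FPKM in the WT-labelled libraries and at 28.6, 29.0 and 33.0 FPKM in the KO-labelled ones. Its log2 fold change was 2.46 (adjusted p = 1.13e-05), and the KO-labelled mean was 5.94 times the WT-labelled mean. *Slco2a1*, the prostaglandin uptake carrier, also rose (1.08 ± 0.195 to 3.12 ± 0.357 FPKM, log2 fold change 1.19, adjusted p = 0.000941). *Abcc4*, an exporter of prostaglandin E2, fell (8.54 ± 1.46 to 3.61 ± 0.257 FPKM, log2 fold change -1.12, adjusted p = 0.00118). *Ptgr1*, a reductase that inactivates prostaglandins and leukotriene B4, fell from 44.4 ± 8.47 to 16.8 ± 1.08 FPKM (log2 fold change -1.36, adjusted p = 0.000508).

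Among the other prostanoid synthases 5 were tested, and *Prxl2b*, a prostamide and prostaglandin F synthase, rose from 8.28 ± 2.26 to 24.5 ± 2.14 FPKM (log2 fold change 1.54, adjusted p = 0.00117). Of the 2 other prostanoid receptors tested, *Ptgir*, the prostacyclin receptor, fell from 5.34 ± 0.709 to 2.06 ± 0.150 FPKM (log2 fold change -1.18, adjusted p = 0.000535).

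Of 8 tested genes of cysteinyl leukotriene synthesis and leukotriene breakdown, 1 was lower and 3 were higher, where 10.5% and 27.1% of all tested genes were. *Ltc4s*, leukotriene C4 synthase, rose from 2.20 ± 0.692 to 7.36 ± 3.01 FPKM (log2 fold change 1.51, adjusted p = 0.00813), with KO values of 6.38, 4.97 and 10.7 FPKM. Only 2 of 5 leukotriene receptors were tested, and both were higher, where 27.1% of all tested genes were. *Cysltr1*, a receptor for cysteinyl leukotrienes, rose from 2.79 ± 0.114 to 7.41 ± 0.737 FPKM (log2 fold change 1.26, adjusted p = 0.000194). The called genes that complete these counts, named after their values were seen, were *Akr1b3* (synthase) and *Cyp4f18* (leukotriene breakdown), which were lower, and *Ptgr2* (breakdown), *Dpep2* and *Ggt5* (cysteinyl leukotriene processing) and *Ltb4r1* (leukotriene B4 receptor), which were higher. Their log2 fold changes were -0.59, -0.58, 0.97, 1.00, 1.12 and 0.94 in that order. *Cyp4f18* lost its call without a filter on low values (adjusted p = 0.0732) and without WT-labelled library 2 or 3 or KO-labelled library 1 or 2 (adjusted p 0.0539 to 0.0899). *Dpep2* is uncertain because 2 identifiers with 1585 exon bases in common bear its symbol.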

How the data were processed

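RNA-seq values of 6 libraries (3 labelled WT, 3 labelled KO) were analysed. The deposited table gives FPKM, computed by the authors, for 55335 Ensembl identifiers in each library. The labels name fastp 0.17.1, HISAT2 2.1.0, DESeq2 1.18.1 and R 3.4.3. The genome build, the annotation and the tool that gave FPKM are not given in the sources used here, and the RNA reagent, library kit and sequencer differ between labels and methods. Symbols and positions came from GENCODE M21 (GRCm38), which matched 55154 identifiers (99.7%), and 1 symbol from a RefSeq synonym. FPKM depends on the total of each library, so large changes in abundant genes shift the others. Of the low values, 39.7% to 43.9% lay within 0.1 of a whole multiple of the smallest step, where 20% would by chance, so whole reads were not recovered, fragment numbers given are estimates, and only log-scale tests were used.

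Groups were compared in limma 3.58.1 (R 4.3.3; variance trend, two-sided, without covariates) on the log2(FPKM + 0.5) scale, for 13367 genes whose mean reached 0.5 FPKM, with Benjamini-Hochberg adjustment over all of them. Ratios between genes were compared with an exact permutation test. The fit was tested on simulated data. The 10 genes, the lists and the markers were chosen with earlier results of these data known. The 10 genes, *Cd177*, 4 fixed pathway genes and pathway genes with an adjusted p-value under 0.05, an absolute log2 fold change of at least 1 and a mean of at least 1 FPKM were named, with defining markers, markers that set a list's sum and the 3 genes nearest to *Ptgs2*. Overlapping genes were named after their values were seen, as were the mast cell, basophil and platelet markers under the filter on low values. Promoters came from RefSeq (9 of the 10 genes matched). The alternatives were 2 pseudocounts, 2 filters, 3 scalings, a robust variance, a replicate block and each library left out. Python 3.11.15, pandas 2.3.3, numpy 2.4.6, scipy 1.17.1 and matplotlib 3.10.9 were used otherwise.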

Additional observations from a re-analysis of the deposited data

How the results depend on the processing

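No gene of the 10 changed direction under any alternative. Of the gene results, 137 kept their side of the threshold, 7 lost a call and 3 gained one. *Lta4h* was at 0.077 after scaling by the median of ratios and 0.078 after upper-quartile scaling (adjusted p = 0.543 and 0.578), and ran from 0.244 to 0.31 with each library left out. *Alox5ap* was called after rescaling to TPM (0.401, adjusted p = 0.0245), with the replicate block (0.383, adjusted p = 0.0201) and without the third WT library, and ran from 0.274 to 0.53 with each library left out. The log2 *Ptgs2* to *Ptgs1* difference was -4.36 with 0.1 added to each value and -4.17 with 1 added, and that of *Ptges* to *Hpgds* -4.18 and -3.76. The exact permutation tests of the ratios gave p-values of 0.1 to 0.2, the smallest that 3 against 3 and 3 against 2 libraries allow.

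With a mean of at least 5 FPKM, 7 of the 10 genes were tested and 3 passed the study's threshold. The share of all tested genes past that threshold was not computed under this filter. Of the 16 other pathway genes tested there, 6 were higher, beside 25.7% of all tested genes. In all 2739 genes were called, since fewer genes were tested. Over all genes 5027 were called, and 3479 to 5966 with each library left out. Replicate numbers were shared between the groups. The correlations of same-numbered deviations were 0.116, 0.036 and 0.264, and 2 of 6 libraries correlated best with their own number. With so few libraries per group these values cannot decide whether same-numbered libraries were paired. In both groups the third library had the largest summed FPKM (340716.7 for WT, 322484.8 for KO) and the fewest genes above 0 (20631 and 21358). With the replicate block 5934 genes were called. Of the 10 genes 7 were then higher and 3 lower, beside 31.8% and 12.6% of all tested genes. The depth limits *Alox5* and the pathway genes under the filter.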
